A study of Mus musculus with 92 samples.

Results

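The comparison set the 3 libraries labelled ER-Hoxb8 progenitors against the 3 labelled BM progenitors, 6 of the 92 libraries of the series. Members were taken from the sample labels, and both groups belong to 1 set of 12 libraries that the authors normalized together. The study follows mouse progenitors and macrophages made from conditionally immortalized myeloid lines. These 6 libraries set the lines, as labelled before differentiation, beside fresh marrow cells. Bulk RNA was sequenced from each sample. ER-Hoxb8 cells came from FVB mice carrying a Cas9-EGFP allele at Rosa26 driven by the CAG promoter. Marrow cells were held in IL3, IL6 and SCF, transduced with a retrovirus carrying HA-tagged ER-Hoxb8, selected with Geneticin, and grown in RPMI with beta-estradiol at 0.0005 mM and GM-CSF at 10 ng/mL. BM progenitors were whole marrow of wild-type FVB femurs and tibias after red cell lysis and magnetic removal of lineage-positive cells, with no culture. The paper describes 3 independent ER-Hoxb8 lines, so replicates are lines in 1 group and marrow preparations in the other. Genotype, culture, growth factors, retrovirus and drug selection all differ between the groups and cannot be told apart.

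Hoxb8 is a homeodomain transcription factor of early haematopoietic cells. Fused to the hormone-binding domain of the estrogen receptor, it enters the nucleus in the presence of estradiol and holds myeloid progenitors in division, and removal of estradiol lets them mature. GM-CSF signals through a receptor made of Csf2ra and Csf2rb and activates STAT5, which turns on feedback genes such as Cish and Socs2. Lineage-depleted marrow holds many kinds of immature cells at once, among them erythroid, megakaryocytic, granulocytic, lymphoid and basophil precursors.

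Values are log2 CPM (counts per M reads, TMM-scaled, with a small offset), as deposited. The lowest value of the set, -4.34, stands for 0 reads, and a gene is called at 0 below when it had under 0.5 estimated reads. Steps between low values gave an effective depth, in M reads, of 44.7, 52.2 and 45.7 in the BM progenitor libraries and 33.3, 48.3 and 42.1 in the ER-Hoxb8 libraries, where replicates are listed 1 to 3 here and throughout. A limit of 3 reads therefore lay between 0.0575 and 0.0902 CPM in these 6 libraries, for counting error only. The 100 genes with most reads took 18.3% to 19.9% of all CPM in BM progenitors and 33.6%, 35.9% and 22.5% in the ER-Hoxb8 libraries. The authors derived gene counts from TPM, and it is not known from the files whether levels carry a correction for gene length. Fold changes compare libraries and not genes, and read numbers are estimates. Genes said to have or take most reads are those with the highest CPM, an order that may depend on gene length.

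Libraries were compared over 11395 genes, those that reached more than 1 CPM in 3 or more of the 6. These are correlations across genes, which are not independent replicates. BM progenitor libraries resembled each other (Spearman 0.952 to 0.985), with 4.09% to 15.4% of genes more than 2-fold apart. The 3 ER-Hoxb8 libraries resembled each other less (0.839 to 0.893), with 33.4% to 43.7% of genes more than 2-fold apart. The library labelled replicate 2 had its highest correlation with ER-Hoxb8 day 4 replicate 2 (0.992), a library from 4 days of differentiation without estradiol. Its 0.992 was the highest of the 66 pairs among the 12 libraries, and only 520 genes (4.56%) differed more than 2-fold between these libraries. They were not copies, since 98 genes differed more than 4-fold, and Gbp4 was 2.19 in the first and at the lowest value in the second. Xlr3b, an X-linked gene, was 6.52 in the library labelled replicate 2 and 6.82 in day 4 replicate 2, and at most -2.33 in the other 4 ER-Hoxb8 libraries of the set. Replicate 1 also had its highest correlation with a day 4 library, though a lower one (0.885 to 0.901 with the 3 day 4 libraries, against 0.943 to 0.992 for the library labelled replicate 2 and 0.841 to 0.892 for replicate 3).

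A further reference came from 3 NTC progenitor libraries, ER-Hoxb8 progenitors with a non-targeting guide that the authors normalized in another set. Correlations with them therefore used ranks, and NTC levels printed below are in that other normalization. Replicate 3 correlated with them at 0.955 to 0.964, replicate 1 at 0.865 to 0.876, and the library labelled replicate 2 at 0.801 to 0.827. BM progenitors gave 0.796 to 0.815 with the same libraries. The library labelled replicate 2 thus went against its label, with the expression profile of day 4 cells, and the group counts below are also given without it. Against BM progenitors, replicate 3 stood closest (0.819 to 0.831), while replicate 1 (0.743 to 0.753) and the library labelled replicate 2 (0.739 to 0.775) lay farther off.

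**Figure D1:**
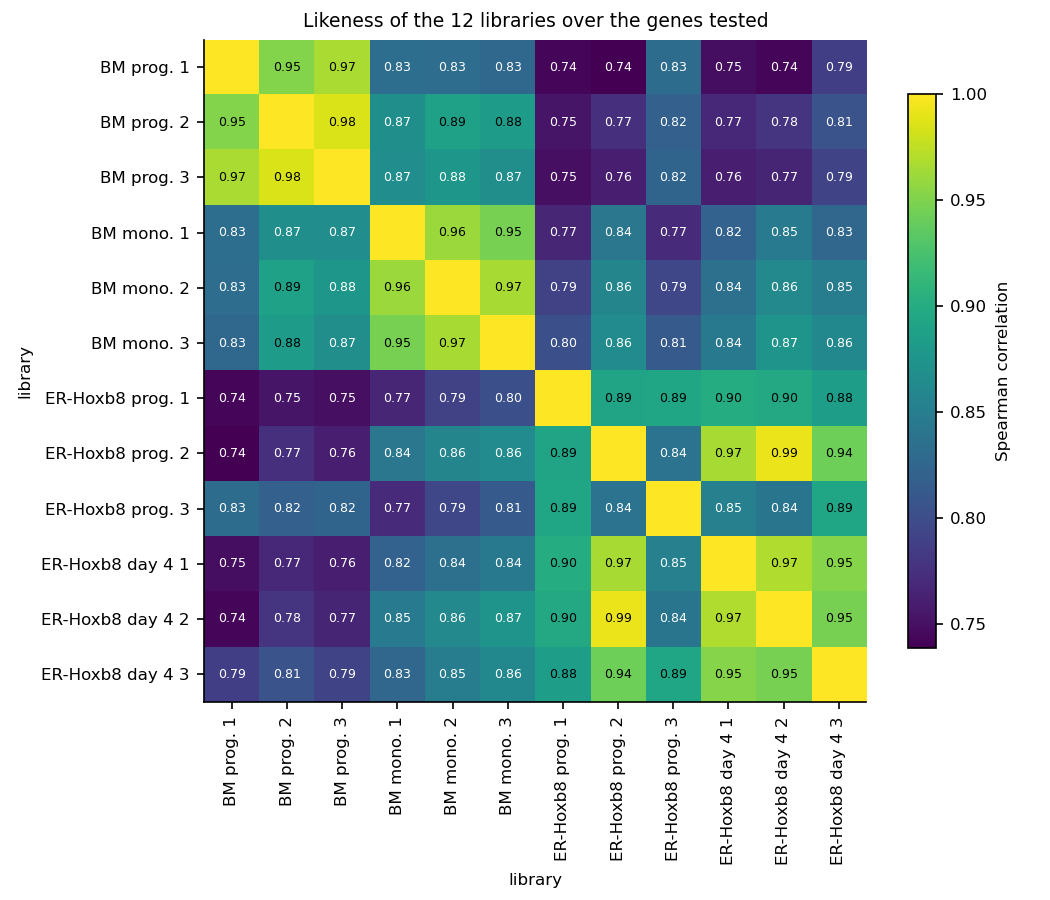
Spearman correlations over 11395 genes between the 12 libraries normalized together (prog., progenitors; mono., monocytes). The library labelled ER-Hoxb8 progenitors replicate 2 has its highest value, 0.99, with ER-Hoxb8 day 4 replicate 2.

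Spread within the groups differed. The median gene ranged over 1.20 log2 units among ER-Hoxb8 libraries and 0.54 among BM progenitor libraries. A range above 2 was found for 2861 genes (25.1%) in the first group and 433 genes (3.80%) in the second, and a range above 4 for 782 genes (6.86%) and 72 genes. Among the 2861 genes, the library farthest from the middle one was replicate 3 for 1153 genes, the library labelled replicate 2 for 1032 and replicate 1 for 676.

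Genes were tested with limma on the 6 libraries, and a gene was counted as higher or lower at an adjusted p below 0.05 with a log2 fold change of at least 2. Fold changes are ER-Hoxb8 over BM progenitors throughout. Of 11395 genes, 1442 (12.7%) passed, 392 higher (3.44%) and 1050 lower (9.21%) in ER-Hoxb8 progenitors. The groups did not overlap for 4333 genes (38%), 1981 with every ER-Hoxb8 library higher and 2352 with every one lower, and all 1442 genes that passed were among them. Another 591 genes had a mean difference of 2 or more and missed the adjusted p, with a median SE of 1.12 against 0.57 for the genes that passed. The median log2 fold change of all genes tested was -0.07, and it was 0.03 after quantile normalization, which gave 788 higher and 845 lower genes. With 3 libraries against 3, an exact permutation test of a single gene cannot give a p below 0.1, and the limma p-values reflect the spread between these samples.

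Counts moved with single libraries. Without the library labelled replicate 2, 1636 genes passed (14.4%), 405 higher and 1231 lower, and 1312 of the 1442 were shared. Leaving out replicate 1 gave 1190 genes (10.4%), 244 higher and 946 lower. Leaving out replicate 3 gave 1999 (17.5%), 697 higher and 1302 lower, the largest number of higher genes among these fits. Leaving out BM progenitors replicate 1, 2 or 3 gave 198, 238 or 209 higher genes and 835, 796 or 784 lower ones. In all, 919 of the 1442 genes passed with each of the 6 libraries left out in turn.

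Taken library by library, replicate 1 had 954 genes at least 2 log2 units above the BM progenitor mean and 1837 at least 2 below it. The library labelled replicate 2 had 968 above and 1404 below, and replicate 3 had 476 above and 1524 below. All 3 libraries shared 223 genes above and 929 below. Another 151 genes were 2 or more above the mean in 1 library and 2 or more below it in another.

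**Figure D2:**
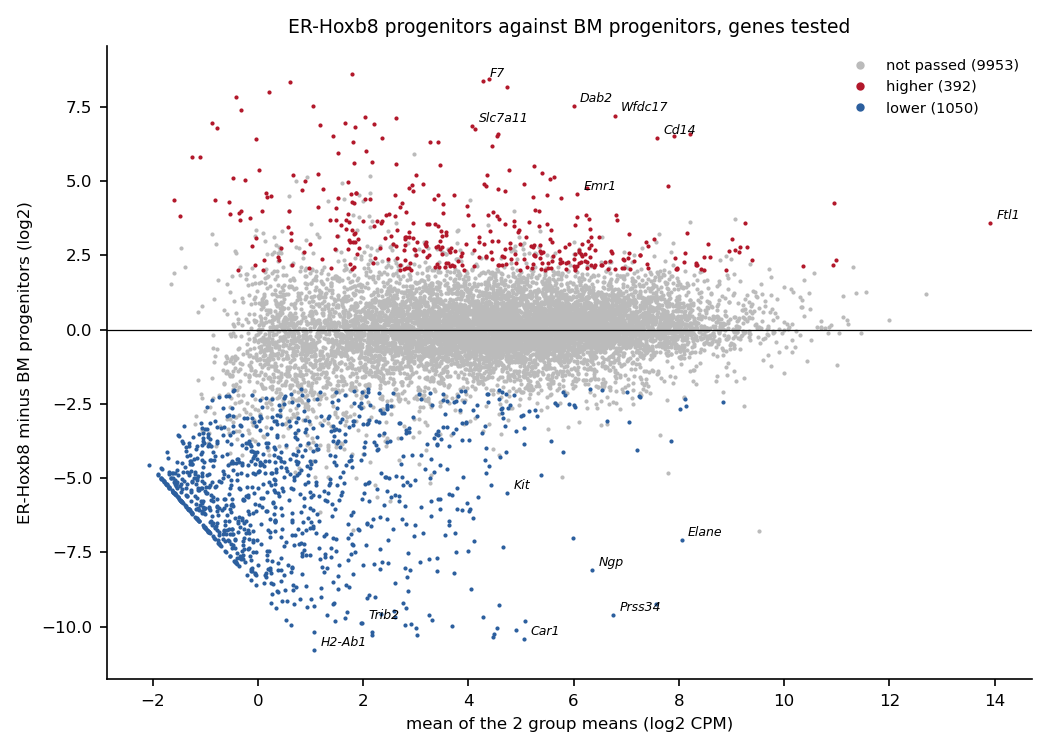
Log2 fold change of each of the 11395 genes tested (ER-Hoxb8 over BM progenitors, y axis) against the mean of the group means in log2 CPM (x axis). Red points are the 392 higher genes, blue points the 1050 lower genes, and grey points those that did not pass; the diagonal edge at the lower left is formed by genes at 0 reads in ER-Hoxb8 libraries.

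The 15 largest rises were in genes with marrow values below 4. Dab2, an endocytic adaptor, was 2.30, 2.23 and 2.20 in BM progenitors and 9.74, 10.32 and 9.23 in ER-Hoxb8 libraries (log2 fold change 7.52, SE 0.32, adjusted p = 5.4e-05). F7, which encodes coagulation factor VII, was 0.58, -0.20 and -0.08 against 8.45, 8.86 and 8.07 (log2 fold change 8.36, SE 0.36, adjusted p = 5.46e-05). Wfdc17, a secreted protein gene of myeloid cells, was 2.97, 3.51 and 3.06 against 11.02, 9.95 and 10.18 (log2 fold change 7.21, SE 0.35, adjusted p = 7.15e-05). For these 3 genes the ER-Hoxb8 libraries lay close together, the library labelled replicate 2 included, and far above marrow. Cdkn2a, which encodes the cell cycle inhibitors p16 and p19Arf, was -3.81, -3.22 and -4.34 against 5.57, 3.75 and 3.27 (log2 fold change 7.98, SE 0.71, adjusted p = 0.000383). Pparg, a lipid-sensing nuclear receptor, was -1.65, -2.41 and -1.39 against 5.92, 3.26 and 6.22 (log2 fold change 6.95, SE 0.84, adjusted p = 0.00154). The 3 ER-Hoxb8 values of Cdkn2a and Pparg were all above the marrow values, and the library labelled replicate 2 was the lowest of them for Pparg.

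Raet1d and Raet1e, ligands of the NKG2D receptor with near-identical transcripts whose reads may be shared, were 9.99, 6.19 and 9.68 and 10.16, 6.45 and 9.84 in ER-Hoxb8 libraries against 0.20, 0.91 and -0.57 and 0.23, 1.17 and 0.60 in marrow, with log2 fold changes of 8.44 and 8.15 (adjusted p = 0.00155 and 0.00138). Both were more than 3 log2 units lower in the library labelled replicate 2 than in replicates 1 and 3. Saa3, an acute phase gene, was at 0 reads in all BM progenitor libraries and 4.79, 1.81 and 1.22 in ER-Hoxb8 libraries, highest in replicate 1. The unannotated gene Gm16531 was likewise at 0 in marrow and 4.52, 2.67 and 3.27 in the lines. The other genes among the 15 largest rises were Gm1972 (8.59), Aldh3a1 (7.40) and Hcar2 (7.13), and Serpinb9g, Nov and Gbp4, which rested on fewer libraries. Nov, a matricellular protein gene also known as Ccn3, was 9.09, 0.70 and 4.65 and did not pass without replicate 3 (log2 fold change 7.60) or without BM progenitors replicate 1, 2 or 3 (7.33, 7.78 and 7.44). Gbp4, an interferon-inducible GTPase gene, was 6.52, 2.19 and 8.16 and did not pass without replicate 1 or 3 (6.70 and 5.88) or any BM library (5.75, 7.69 and 8.02). Serpinb9g, a member of a family of near-identical serpins, was 6.27, 0.69 and 7.38 and did not pass without replicate 1 (7.60) or any BM library (9.12, 7.95 and 7.95). The other 12 of the 15 passed with each library left out in turn.

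The largest fitted fall was that of H2-Ab1, a class II MHC chain, which was 5.65, 7.21 and 6.56 in BM progenitors and at 0 reads in ER-Hoxb8 libraries, at least 1083-fold lower against 3 reads in the shallowest ER-Hoxb8 library. Sh2d4a, which encodes an SH2 domain adaptor, was at least 548-fold lower by the same measure. Car1, the carbonic anhydrase of early red cells, was 11.05, 9.61 and 10.14 in BM progenitors and -0.02, -0.46 and 0.04 in ER-Hoxb8 libraries (log2 fold change -10.41, SE 0.41, adjusted p = 5.4e-05). Prg2, which encodes the major basic protein of eosinophils, was 8.24, 7.92 and 8.30 against -1.79, -1.97 and -2.58 (log2 fold change -10.27, SE 0.37, adjusted p = 5.4e-05). Gata1, the transcription factor of red cells, platelets, mast cells and eosinophils, was 8.65, 7.50 and 7.91 against -1.49, -2.62 and -1.99 (log2 fold change -10.05, SE 0.48, adjusted p = 7.15e-05). For Car1, Prg2 and Gata1 the groups lay 8 or more log2 units apart and the 3 ER-Hoxb8 libraries were alike. Others among the 15 largest falls were Ermap (-10.34), Slc14a1 (-10.28), Hbb-bs (-10.26), Phyhip (-10.18), Sphk1 (-10.18), Aqp1 (-10.13), Hba-a2 (-10.03), Slc38a5 (-9.96) and Rhag (-9.91). All 15 passed with each library left out in turn. Of the 1050 lower genes, 116 had every ER-Hoxb8 library at 0, and for these the fitted fold change depends on the offset.

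Red cell genes fell as a list. Of 16 tested, 15 were lower and Tfrc, the transferrin receptor, did not pass, with a median log2 fold change of -9.87 beside -0.07 for all genes. List counts here and below stand against 3.44% higher and 9.21% lower among all genes. A gene under 1 CPM in every ER-Hoxb8 library entered the test only through marrow, which fixed the direction of its difference. The summed level of red cell genes was 13700, 10400 and 12600 CPM in BM progenitors and 63.8, 22.8 and 853 CPM in ER-Hoxb8 libraries, with Car2 taking most reads in the first group and Tfrc in the second, and none of the 16 was at 0 in every ER-Hoxb8 library. Tfrc accounted for the higher sum of replicate 3, at 5.74, 3.84 and 9.62 against 8.45, 8.12 and 8.26. Hbb-bs, the adult beta globin with a close paralog, was 8.82, 9.79 and 10.24 in marrow and -0.18, -1.19 and -0.56 in the lines (log2 fold change -10.26, SE 0.46, adjusted p = 6.46e-05). Ermap, a red cell surface protein gene, was 10.13, 9.25 and 9.55 against -1.78, -0.24 and -0.07. NTC progenitors, in their own normalization, had 8.49, 8.14 and 7.80 for Hbb-bs, 7.97, 7.68 and 7.27 for Hba-a1, and 7.01, 6.54 and 6.45 for Hba-a2. Their values were -2.05, -0.57 and -0.32 for Ermap and -3.43, -2.92 and -3.43 for Gata1. Globin transcripts were therefore not low in every set of ER-Hoxb8 progenitors. The count was 15 without any 1 of the other libraries and 16 without replicate 3, where Tfrc passed at -3.48. Whether fewer cells of a type or less RNA per cell lay behind such a fall cannot be told apart in bulk RNA, here and for the lists that follow.

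The promoters of Hbb-bs and Ermap are shown as those of 2 red cell genes with a GATA match. RefSeq windows (250 bases before to 50 after the start site, GRCm38.p6, while the authors mapped reads to a later build) were present for 12 of the 16 red cell genes. The GATA motifs AGATAA and TGATAA were searched on both strands, and 8 of the 12 genes held at least 1, against 18.6% of all 32851 windows. Capitals mark the matches. The window of Hbb-bs is chr7:103827879-103828178 (minus strand) and that of Ermap is chr4:119189946-119190245 (minus strand).
Hbb-bs: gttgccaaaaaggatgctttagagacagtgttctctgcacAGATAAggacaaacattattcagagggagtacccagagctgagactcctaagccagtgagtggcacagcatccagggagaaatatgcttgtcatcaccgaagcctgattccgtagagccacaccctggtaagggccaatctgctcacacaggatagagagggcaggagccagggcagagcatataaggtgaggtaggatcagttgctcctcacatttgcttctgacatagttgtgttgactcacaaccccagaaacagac
Ermap: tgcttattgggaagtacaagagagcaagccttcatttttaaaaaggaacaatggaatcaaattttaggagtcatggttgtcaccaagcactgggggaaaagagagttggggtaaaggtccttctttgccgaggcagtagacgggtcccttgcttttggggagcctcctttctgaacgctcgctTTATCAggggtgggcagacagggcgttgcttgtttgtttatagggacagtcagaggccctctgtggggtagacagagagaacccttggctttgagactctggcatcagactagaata
The match of Hbb-bs began -210 bases from the start site and that of Ermap, on the opposite strand, -67 bases from it. A match describes the letters only.

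Other lineages followed. For megakaryocyte genes, 8 of 9 tested were lower (median -6.93), and the summed level was 335, 763 and 997 CPM in BM progenitors against 26, 80.1 and 18.1 CPM. Vwf, which encodes von Willebrand factor, did not pass; it was 4.31, 4.89 and 5.58 in marrow and 3.79, 6.22 and -0.10 in ER-Hoxb8 libraries, highest in the library labelled replicate 2, and took most reads of the list in that library and replicate 1. The platelet genes Pf4 (5.84, 7.32 and 7.89 against 0.49, -0.42 and 0.20) and Itga2b (6.14, 6.46 and 7.08 against 0.41, -0.51 and -0.78) were at most 0.49 in the lines. The count was 6 without BM progenitors replicate 1, 2 or 3 or without replicate 1, and 7 without the library labelled replicate 2.

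Mast cell, basophil and eosinophil genes were lower for 10 of 12 tested (median -8.54), 9 to 10 with each library left out in turn. Their sum was 5210, 3520 and 3990 CPM in marrow and 46.7, 26.8 and 18.9 CPM in the lines. Prss34, a basophil protease and the gene with most reads of the list in marrow, was 11.98, 11.33 and 11.37 against 2.36, 1.12 and 2.34 (log2 fold change -9.62, SE 0.41, adjusted p = 5.4e-05). Cpa3, a mast cell protease gene, was 6.95, 6.60 and 7.47 against -1.04, -1.24 and -1.72 (log2 fold change -8.34, SE 0.41, adjusted p = 7.15e-05). Both stayed low in all 3 ER-Hoxb8 libraries, where Prg3 (2.65, 2.84 and 3.04 in marrow) was at 0. The ribonuclease genes Ear1 and Ear2 did not pass (0.77 and 0.64). Their log2 fold changes were 0.22 and 0.09 without replicate 1, 0.47 and 0.38 without the library labelled replicate 2, and 1.62 and 1.46 without replicate 3, and Ear2 took most reads of the list in replicate 1 and the library labelled replicate 2, with Ms4a2 ahead in replicate 3.

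Lymphoid genes were lower for 19 of 21 tested (median -8.02), and 16 to 20 with each library left out in turn. The sum was 1410, 3940 and 3190 CPM in marrow and 8.33, 84.3 and 346 CPM in ER-Hoxb8 libraries, with Ighm taking most reads in both. Ighm, the mu heavy chain, did not pass and was 9.47, 10.68 and 10.51 against 2.24, 5.56 and 8.33, highest among ER-Hoxb8 libraries in replicate 3 and lower at -6.32 without it. Cd79a, a B cell receptor chain, was 5.83, 8.57 and 8.10 against -1.95, -1.75 and -1.93 (log2 fold change -9.38, SE 0.72, adjusted p = 0.000207). Dntt, the terminal transferase of early lymphocytes, was 6.59, 6.34 and 6.20 against -3.19, -4.34 and -2.78 (log2 fold change -9.81, SE 0.52, adjusted p = 8.03e-05). The T cell receptor chain gene Cd3e (1.51, 2.51 and 3.09 in marrow) was at 0 in every ER-Hoxb8 library, and Cd79a and Dntt were below 0 there. Ebf1, a B cell transcription factor, was -0.51, -0.74 and 4.12 in the lines and did not pass without BM progenitors replicate 1, 2 or 3 (-6.71, -5.54 and -6.08) or replicate 1 (-5.38).

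Dendritic cell genes were lower for 8 of 12 tested (median -4.65; sums 320, 631 and 583 CPM against 126, 101 and 60.1 CPM), 7 or 8 with each library left out. Ly6d took most reads in marrow and Bst2 in the lines, and Clec9a, not tested, was 0.92, -1.68 and 0.30 in marrow and at 0 in all ER-Hoxb8 libraries. All 4 stromal and endothelial genes tested were lower (median -6.23, and -5.81 with genes at 0 set at 3 reads; sums 73.2, 147 and 165 CPM against 3.95, 10.9 and 6.58 CPM), also with each library left out. The other 6 of the 10 listed genes were not tested. Pecam1, an adhesion molecule of endothelium and myeloid cells, took most reads in both groups. Cdh5 (1.92, 2.30 and 1.89 in marrow) was at 0 in the lines, so it entered the test through marrow alone. The part that the mixture of cells in marrow plays in the fold changes of other genes was not tested.

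**Figure D3:**
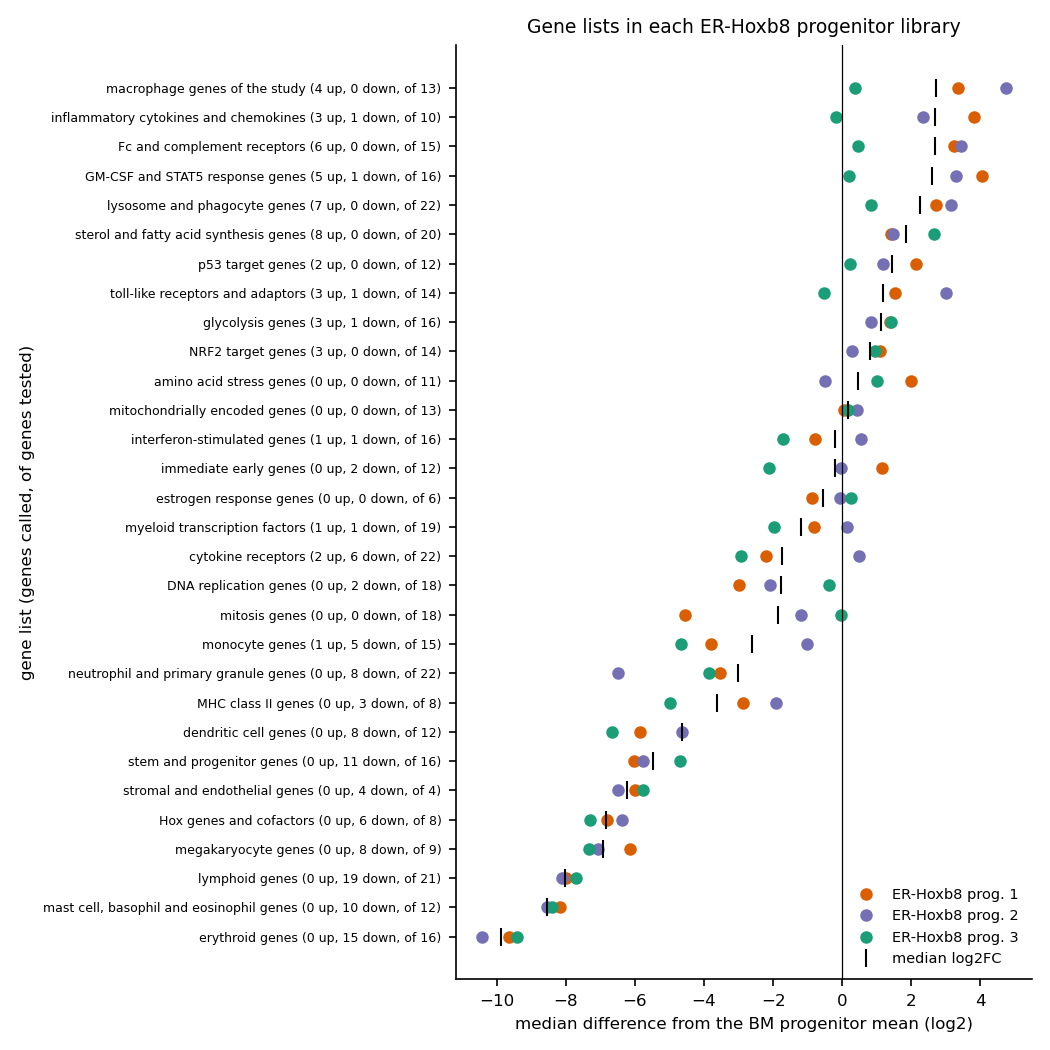
Median difference from the BM progenitor mean (log2, x axis) of the genes tested in each list (y axis), for each ER-Hoxb8 library, with the list's median log2 fold change as a bar. Red cell, mast cell, lymphoid and megakaryocyte lists lie below -6 in all 3 libraries, while the macrophage list ranges from 0.37 in replicate 3 to 4.73 in the library labelled replicate 2.

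Stem and progenitor genes were lower for 11 of 16 tested (median -5.46). The count was 7 without BM progenitors replicate 1, 2 or 3, 9 without replicate 1, 10 without the library labelled replicate 2 and 13 without replicate 3. Kit, the SCF receptor, was 8.13, 7.02 and 7.33 in BM progenitors and 5.03, -0.76 and 1.67 in ER-Hoxb8 libraries (log2 fold change -5.51, SE 1.32, adjusted p = 0.0324). Cd34, a sialomucin of immature cells, was 7.29, 6.56 and 6.80 against -1.42, 4.21 and 0.38 (log2 fold change -5.83, SE 1.30, adjusted p = 0.0245). Kit was highest in replicate 1 and Cd34 in the library labelled replicate 2, and all of these values lay below those of marrow. Kit did not pass without BM progenitors replicate 1, 2 or 3 (log2 fold change -5.19, -5.75 and -5.59), and neither did Cd34 (-5.63, -5.99 and -5.87), which also missed without replicate 1 (-4.59). Meis1, a homeodomain partner of Hox proteins, was 4.45, 4.15 and 3.93 against -2.67, -2.44 and -3.17 (log2 fold change -6.93, SE 0.43, adjusted p = 0.000109). Gata2, needed by stem cells and mast cells, was 4.30, 3.68 and 3.82 against -2.02, -4.34 and -2.80 (log2 fold change -6.99, SE 0.67, adjusted p = 0.000519). Both were low in every ER-Hoxb8 library and passed with each library left out.

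Myb, a transcription factor of dividing progenitors, did not pass. It was 6.12, 6.71 and 6.60 in marrow and 3.00, -2.03 and 6.42 in ER-Hoxb8 libraries (log2 fold change -4.01, SE 1.89, adjusted p = 0.205). Replicate 3 was at the level of marrow, and the library labelled replicate 2 was more than 8 log2 units below replicate 3. The log2 fold change was -1.77 without the library labelled replicate 2, and Myb passed as lower without replicate 3 (-5.99, adjusted p = 0.0214). Day 4 libraries had -1.95, -1.06 and 0.64, and NTC progenitors, in their own normalization, had 6.31, 6.54 and 6.55. Cdk6, a cell cycle kinase and the gene with most reads of the list in both groups, was 9.11, 8.72 and 8.33 against 8.89, 6.59 and 9.45 and overlapped. Angpt1, a secreted Tie2 ligand, was 4.72 in replicate 3 and at most -2.37 in the other libraries of the lines, against 5.59, 5.21 and 5.41, and passed as lower without replicate 3 (-8.31).

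Among Hox genes and cofactors, 6 of 8 tested were lower (median -6.83), also with each library left out in turn. Of the 18 listed, 10 were not tested, among them every Hox gene except Hoxa7 and Hoxa9. The means of untested members went both ways, with Hoxb4 at -1.10 in marrow against -0.36 and Hoxa5 at -1.36 against -4.17. Hoxa9, a Hox gene of early progenitors, was 3.74, 3.28 and 3.33 in BM progenitors and -4.34, -4.34 and -4.0 in ER-Hoxb8 libraries (log2 fold change -7.68, SE 0.42, adjusted p = 8.65e-05). Trib2, a pseudokinase gene grouped here with Hox targets, was 7.04, 7.01 and 6.73 against -3.31, -2.99 and -2.57 (log2 fold change -9.88, SE 0.40, adjusted p = 5.4e-05). Both were near the lowest value throughout the lines. The cofactors Pbx2 (0.47) and Pbx3 (-0.38) did not pass, with 0.15 to 0.67 for Pbx2 over the left-out libraries, and Pbx3 changed sign under quantile normalization (0.73) and without replicate 1 (0.17). Hoxb8 itself was too low to be tested. It was at 0 reads in the 3 BM progenitor libraries and -2.08, -1.83 and 0.33 in the ER-Hoxb8 libraries, or 6.2, 11.2 and 50.9 estimated reads. Replicate 3 had the most, and it is not known from the files how many reads of the transgene the reference transcripts could take up.

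Of the 13 macrophage genes that the study names, Emr1, Cd14, Mertk and Tlr4 were higher and the other 9 did not pass (median 2.72). Summed levels were 460, 746 and 760 CPM in BM progenitors and 9100, 10300 and 1910 CPM in ER-Hoxb8 libraries, lowest in replicate 3, with Ptprc taking most reads in the first group and Cd14 in the second. Cd14, a co-receptor for lipopolysaccharide, was 3.74, 5.08 and 4.24 against 12.08, 10.93 and 9.43 (log2 fold change 6.46, SE 0.69, adjusted p = 0.000881). Emr1, which encodes F4/80, was 3.45, 3.97 and 3.93 against 7.20, 9.51 and 8.36 (log2 fold change 4.57, SE 0.56, adjusted p = 0.00173). Tlr4, the lipopolysaccharide receptor, was 2.16, 3.45 and 3.62 against 9.13, 7.73 and 7.72 (log2 fold change 5.12, SE 0.54, adjusted p = 0.000864). These genes were high in all 3 ER-Hoxb8 libraries, replicate 3 included, and passed with each library left out. Mertk, a receptor for apoptotic cells, was -1.02, 0.84 and -0.89 against 3.16, 4.85 and 1.98 (log2 fold change 3.69, SE 0.86, adjusted p = 0.0294) and did not pass without replicate 1 (3.77) or BM progenitors replicate 1 or 3 (3.36 and 3.43).

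Several macrophage genes divided the lines. Csf1r, the M-CSF receptor, was 6.00, 6.06 and 6.34 in marrow and 7.75, 10.45 and 3.10 in ER-Hoxb8 libraries (log2 fold change 0.97, SE 1.65, adjusted p = 0.74). The library labelled replicate 2 was highest and replicate 3 lay below marrow, so the sign turned to -0.71 without the former, and the gene passed at 2.96 without the latter. Cx3cr1, the fractalkine receptor, was 5.47, 4.38 and 5.02 against 0.64, 8.95 and 0.74 (log2 fold change -1.51, SE 2.12, adjusted p = 0.681). It was high only in the library labelled replicate 2, and without that library it was lower at -4.27. Its log2 fold change was -0.11 without replicate 1 and -0.16 without replicate 3. Msr1, a scavenger receptor, was 1.65, 2.95 and 2.46 against 1.26, 8.39 and 0.81 and Trem2, a lipid receptor, 2.21, 2.56 and 1.99 against 3.61, 9.73 and 1.59 (1.14 and 2.72, adjusted p = 0.737 and 0.377). Both were above 8 in the library labelled replicate 2, and without it Msr1 turned to -1.31 and Trem2 came to 0.35. Without replicate 3 they were at 2.48 and 4.42, and Msr1 was at 2.25 without replicate 1. Itgam (2.70), Cd68 (3.22), Fcgr3 (2.94), Aif1 (-1.42) and Ptprc (1.00) did not pass (adjusted p = 0.179, 0.103, 0.0873, 0.507 and 0.123). Aif1 was 2.16, 3.36 and 3.03 against 1.18, 4.30 and -1.18, with a log2 fold change of -2.85 without the library labelled replicate 2 and -0.11 without replicate 3, and Itgam was at 1.69 without the former. Without replicate 3, Itgam (4.05), Cd68 (4.64) and Fcgr3 (4.12) were higher, and 8 of the 13 passed. Without the library labelled replicate 2, Emr1, Cd14, Mertk and Tlr4 were higher and Cx3cr1 lower.

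GM-CSF and STAT5 response genes were higher for 5 of 16 tested (Il1rn, Ccl9, Bhlhe40, Pparg and Fabp4) and lower for Cd209a (median 2.60). The number of higher genes was 5 without BM progenitors replicate 1, 2 or 3 or replicate 1, 7 without the library labelled replicate 2 and 10 without replicate 3, and 2 were lower without the library labelled replicate 2. Il1rn, the interleukin 1 receptor antagonist, was 1.12, 3.17 and 1.94 in marrow and 8.59, 6.36 and 7.44 in the lines (log2 fold change 5.38, SE 0.71, adjusted p = 0.00239). Bhlhe40, a transcription factor that GM-CSF induces, was 2.84, 3.40 and 3.44 against 9.03, 6.89 and 7.34 (log2 fold change 4.52, SE 0.56, adjusted p = 0.00179). Fabp4, a fatty acid carrier controlled by Pparg, was 0.01, 0.66 and 1.19 against 5.13, 4.93 and 5.76 (log2 fold change 4.65, SE 0.45, adjusted p = 0.000558). None of these values overlapped between groups, and the library labelled replicate 2 was the lowest of the lines for all 3 genes. Cd209a, a lectin of dendritic cells and monocytes, was 5.22, 5.39 and 5.41 against -4.34, -3.46 and -3.36 (log2 fold change -9.06, SE 0.45, adjusted p = 7.42e-05), low in every library of the lines.

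Some STAT5 feedback genes split by library. Cish, an inhibitor of cytokine receptors, was 2.15, 1.40 and 1.51 in BM progenitors and 7.50, -0.36 and 6.76 in ER-Hoxb8 libraries (log2 fold change 2.94, SE 1.94, adjusted p = 0.352). Replicates 1 and 3 were more than 4 log2 units above marrow and the library labelled replicate 2 below it, so the gene passed at 5.44 without that library. Its log2 fold change was 1.51 without replicate 1 and 1.88 without replicate 3. Day 4 libraries, grown with M-CSF in place of GM-CSF, had -1.82, 0.33 and -2.71, and NTC progenitors had 6.57, 6.46 and 6.66 in their own normalization. Socs2, a related inhibitor, was 1.83, 3.50 and 2.92 against 6.15, -0.55 and 5.38, and the survival kinase gene Pim1 -1.0, -1.14 and -1.66 against 3.11, -0.99 and 1.90. In both, replicates 1 and 3 were above all marrow values and the library labelled replicate 2 was the lowest of the lines. Socs2 passed as higher without that library (3.02). Not all members of the list followed this order: Socs3, a further inhibitor, was -2.64, -3.87 and -3.43 against 3.97, 0.27 and 0.03, and Pim2, a kinase related to Pim1, 1.82, 3.47 and 3.96 against 1.57, 2.64 and 2.48. The receptor genes Csf2ra (2.19, 2.90 and 2.90 against 5.09, 5.52 and 3.77) and Csf2rb (6.09, 5.95 and 5.94 against 8.94, 8.18 and 7.77) were higher (2.13 and 2.30, adjusted p = 0.0352 and 0.00397), though the paralog Csf2rb2, whose reads may be shared with Csf2rb, did not pass (0.92). Csf2rb2 was 4.09, 4.03 and 3.54 against 6.02, 5.71 and 2.68, with a log2 fold change of 0.31 without replicate 1, 0.47 without the library labelled replicate 2 and 1.98 without replicate 3. Csf2ra fell short without BM progenitors replicate 1, 2 or 3 (1.89, 2.25 and 2.25), replicate 1 (1.98) or the library labelled replicate 2 (1.77), and Csf2rb without replicate 1 (1.98).

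Cish is shown since its level separated the libraries of the lines. The STAT motif TTCNNNGAA, the same on both strands, was found in 3 of the 17 listed genes with a RefSeq window (Ccl17, Cish and Socs3) and in 8.3% of all windows. Cish held 2 matches, in capitals (chr9:107296409-107296708, plus strand, GRCm38.p6).
Cish: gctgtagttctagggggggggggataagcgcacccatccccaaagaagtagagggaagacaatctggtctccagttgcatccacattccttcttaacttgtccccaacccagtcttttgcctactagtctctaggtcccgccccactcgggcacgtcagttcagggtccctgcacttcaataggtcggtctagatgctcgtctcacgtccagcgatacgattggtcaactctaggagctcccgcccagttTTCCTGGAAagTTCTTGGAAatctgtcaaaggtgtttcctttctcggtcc
The first match began 0 bases and the second 11 bases from the start site.

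In the whole list of 22 cytokine receptors, Csf2ra and Csf2rb were higher and 6 were lower, among them Kit, Flt3, Epor, Il1rl1 and Cxcr2 (median -1.75). The number of lower genes was 3 without BM progenitors replicate 1, 2 or 3 and 11 without the library labelled replicate 2. The number of higher genes was 1 without BM progenitors replicate 1, 2 or 3 or the library labelled replicate 2, 0 without replicate 1 and 4 without replicate 3. Flt3, Il1rl1, Kit, Csf2ra and Csf2rb lost the call without at least 1 of these libraries, with log2 fold changes over the left-out libraries of -5.86 to -3.54 for Flt3, -5.71 to -3.73 for Il1rl1, -7.03 to -4.14 for Kit, 1.77 to 2.64 for Csf2ra and 1.98 to 2.56 for Csf2rb. Ccr2, the receptor that brings monocytes out of marrow, did not pass and was 6.55, 7.02 and 6.79 against 1.49, 9.33 and 1.73, and Il7r, the interleukin 7 receptor, was 4.34, 5.52 and 5.66 against -4.34, 3.99 and -4.34. Within the lines, both were high only in the library labelled replicate 2. Il7r was at 0 reads in replicates 1 and 3. Ccr2 and Il7r passed as lower without the library labelled replicate 2 (-5.18 and -9.51).

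Of 19 myeloid transcription factors, Bhlhe40 was higher and Gfi1b lower (median -1.19), near the shares among all genes (3.44% and 9.21%). Gfi1b, a repressor of red cell and platelet precursors, was 8.06, 6.89 and 7.47 against -1.34, -1.81 and 1.16 (log2 fold change -8.13, SE 0.81, adjusted p = 0.000602). Irf8, a monocyte and dendritic cell factor, was 7.05, 7.80 and 7.78 against 2.07, 7.68 and 2.99, and Maf, a macrophage factor, 0.67, 2.20 and 1.53 against -2.56, 5.12 and -1.73. For both, replicates 1 and 3 lay below the marrow values and the library labelled replicate 2 within or above them, and both passed as lower without it (-5.01 and -3.61). Spi1, which encodes PU.1, was 1.61, 2.23 and 2.21 against 2.91, 4.62 and 2.30, and Cebpb, 0.01, 1.42 and 0.86 against 3.24, 2.47 and 2.54; every library of the lines was above marrow, by a mean of 1.26 and 1.98, and Spi1 by 0.59 without the library labelled replicate 2. Cebpb passed at 2.12 without the library labelled replicate 2 and 2.09 without replicate 3. Without the library labelled replicate 2, 2 factors were higher and 4 lower, and without replicate 3, 3 and 2.

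Neutrophil and primary granule genes were lower for 8 of 22 tested (median -3.01), 7 to 10 with each library left out, and 1 was higher without replicate 3. Their summed levels of 8120, 29100 and 24400 CPM in marrow and 15500, 56000 and 6630 CPM in the lines were carried by Mpo in marrow and in replicate 3, and by Lyz2 in replicate 1 and the library labelled replicate 2. Ngp, a secondary granule gene of late neutrophil precursors, was 7.54, 12.63 and 11.02 against 2.24, 2.05 and 2.61 (log2 fold change -8.10, SE 1.17, adjusted p = 0.00366). S100a9, a calcium-binding protein of neutrophils, was 3.72, 8.91 and 8.17 against -1.19, -1.32 and -0.94 (log2 fold change -8.09, SE 1.28, adjusted p = 0.0056). Nkg7, a granule membrane gene, was 7.52, 8.56 and 8.54 against -1.40, -2.45 and -0.89 (log2 fold change -9.78, SE 0.53, adjusted p = 8.65e-05). The 3 genes were low in all ER-Hoxb8 libraries, and in marrow Ngp and S100a9 were lowest in replicate 1.

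Primary granule genes differed within the lines. Mpo, myeloperoxidase, was 12.25, 13.09 and 13.40 in marrow and 4.40, 2.77 and 11.20 in ER-Hoxb8 libraries (log2 fold change -6.79, SE 2.00, adjusted p = 0.063). Replicate 3 was below every marrow library, and replicate 1 and the library labelled replicate 2 were far lower still. Without replicate 3, Mpo was lower at -9.33. Elane, neutrophil elastase, was 10.44, 12.22 and 12.16 against 3.37, 1.49 and 8.67 (log2 fold change -7.10, SE 1.71, adjusted p = 0.0328). It fell short without replicate 1 (-6.52), the library labelled replicate 2 (-5.59) or BM progenitors replicate 1, 2 or 3 (-7.68, -6.79 and -6.82). Prtn3, proteinase 3, was 7.73, 9.49 and 9.66 against 7.23, 2.14 and 10.37, and Ctsg, cathepsin G, was 7.01, 8.14 and 8.62 against 7.20, 0.54 and 8.50. Replicates 1 and 3 lay near the marrow values for these proteases, while the library labelled replicate 2 was lowest. NTC progenitors, in their own normalization, had 14.57, 14.15 and 13.97 for Mpo and 9.62, 9.74 and 9.49 for Elane. Day 4 libraries had 3.39, 4.13 and 4.34 for Mpo and 1.96, 2.46 and 2.78 for Elane.

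The promoter of Mpo is shown since its level in replicate 3, though below marrow, stood far above that in the other libraries of the lines. The PU.1 motif GAGGAAGT, searched on both strands, was present in 6 of the 22 listed genes with a window (Elane, Ly6g, Mmp8, Mpo, Prtn3 and S100a8), against 3.2% of all windows. In Mpo (chr11:87793534-87793833, plus strand, GRCm38.p6) the match began -224 bases from the start site.
Mpo: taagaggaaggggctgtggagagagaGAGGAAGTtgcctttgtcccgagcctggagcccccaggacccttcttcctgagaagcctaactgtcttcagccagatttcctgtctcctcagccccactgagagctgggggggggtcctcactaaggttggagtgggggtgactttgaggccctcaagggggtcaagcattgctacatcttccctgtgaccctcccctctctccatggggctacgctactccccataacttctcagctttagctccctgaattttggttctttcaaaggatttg
The match is a description of this window.

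Monocyte genes were lower for 5 of 15 tested (among them Ms4a6c, Ms4a4c, Fn1 and Cd177) and higher for Vcan (median -2.60). The lower count was 3 without BM progenitors replicate 1, 2 or 3, and 7 without the library labelled replicate 2 or replicate 3. Fn1, fibronectin, did not pass without BM progenitors replicate 1, 2 or 3 (-4.43, -3.95 and -4.04) or replicate 1 (-3.67). The summed level was 1540, 2500 and 2330 CPM in marrow against 377, 6670 and 1240 CPM, with F13a1 taking most reads in marrow, Ctss in replicate 1 and the library labelled replicate 2, and Plac8 in replicate 3. Ms4a6c, a membrane protein gene of monocytes, was 6.49, 6.54 and 6.32 against 0.63, 2.17 and 0.54 (log2 fold change -5.33, SE 0.49, adjusted p = 0.000455). Vcan, a matrix proteoglycan gene, was 0.52, 0.61 and 0.56 against 3.67, 3.72 and 5.01 (log2 fold change 3.57, SE 0.48, adjusted p = 0.00257). Ctss, cathepsin S, was 6.32, 7.32 and 7.05 against 7.14, 11.96 and 5.30, and Plac8, a progenitor and monocyte gene, 7.27, 8.35 and 8.74 against 5.04, 0.83 and 8.89. Within the lines, Ctss was highest and Plac8 lowest in the library labelled replicate 2, and Plac8 passed as lower without replicate 3 (-5.18).

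Lysosome and phagocyte genes were higher for 7 of 22 tested (Ctsd, Ctsz, Lamp1, Cd63, Gpnmb, Hexa and Lipa; median 2.26). This count depended on the libraries, at 1, 2 and 1 without BM progenitors replicate 1, 2 and 3, and 1, 3 and 17 without ER-Hoxb8 replicate 1, the library labelled replicate 2 and replicate 3. Lamp1, Cd63, Hexa and Lipa lost the call in some of these fits, with log2 fold changes of 1.59 to 2.63 for Lamp1, 1.91 to 3.36 for Cd63, 2.06 to 2.89 for Hexa and 2.41 to 4.22 for Lipa. Ctsz, a cathepsin, was 7.76, 8.01 and 7.94 against 11.33, 10.47 and 10.23 (log2 fold change 2.77, SE 0.37, adjusted p = 0.00262) and passed each time. Ctsd, cathepsin D, was 8.95, 8.73 and 8.77 against 14.78, 13.92 and 10.55 (log2 fold change 4.27, SE 1.05, adjusted p = 0.0358). Gpnmb, a membrane glycoprotein of loaded lysosomes, was 4.97, 4.77 and 4.23 against 12.98, 13.30 and 7.25 (log2 fold change 6.52, SE 1.52, adjusted p = 0.029). For both, replicate 3 was lowest in the lines yet above marrow, and both passed only with all libraries or without replicate 3 (5.54 and 8.48). Lyz2, lysozyme, which has a close paralog in Lyz1, was 9.34, 10.96 and 10.45 against 13.77, 15.74 and 7.56 (log2 fold change 2.11, SE 1.95, adjusted p = 0.516). It was below marrow in replicate 3 and passed at 4.51 without that library. The log2 fold change was 0.42 without the library labelled replicate 2 and 1.40 without replicate 1.

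Ctsd is shown as a gene with more than 30 times the marrow level in replicate 1 and the library labelled replicate 2. The motif TCACGTGA, bound by TFEB and its relatives and the same on both strands, was present in 1 of the 17 listed genes with a window (Ctsd) and in 0.974% of all windows. The match of Ctsd (chr7:142387778-142388077, minus strand, GRCm38.p6) began -99 bases from the start site.
Ctsd: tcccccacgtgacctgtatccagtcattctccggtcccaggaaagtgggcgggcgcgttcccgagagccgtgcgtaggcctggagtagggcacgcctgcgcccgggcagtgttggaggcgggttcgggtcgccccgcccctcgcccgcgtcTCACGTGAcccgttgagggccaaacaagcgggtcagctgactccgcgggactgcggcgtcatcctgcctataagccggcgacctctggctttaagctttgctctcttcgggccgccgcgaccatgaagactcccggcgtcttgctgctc
These letters were not found in the windows of the other 16 listed genes.

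Fc and complement receptors were higher for 6 of 15 tested (Fcgr1, Fcgr2b, Fcgr4, Fcer1g, Itgb2 and C5ar1; median 2.68), 2, 3 and 2 without BM progenitors replicate 1, 2 and 3, and 2, 4 and 9 without replicate 1, the library labelled replicate 2 and replicate 3. Without the library labelled replicate 2, 2 were lower. Fcgr4, Fcer1g, Itgb2 and C5ar1 lost the call in some of these fits, with log2 fold changes of 4.12 to 5.44 for Fcgr4, 2.39 to 3.63 for Fcer1g, 2.29 to 3.34 for Itgb2 and 2.69 to 4.27 for C5ar1. Fcgr1, the high-affinity IgG receptor, was -1.87, 0.23 and -0.30 against 5.89, 6.13 and 2.92 (log2 fold change 5.63, SE 0.98, adjusted p = 0.00892). Fcgr2b, the inhibitory IgG receptor, was 4.70, 5.96 and 5.67 against 9.56, 8.75 and 7.66 (log2 fold change 3.21, SE 0.55, adjusted p = 0.00816). Both passed with each library left out, with replicate 3 the lowest of the lines. C3ar1, the C3a receptor, was 2.34, 1.28 and 2.48 against 2.81, 8.14 and 1.95 and high only in the library labelled replicate 2.

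Toll-like receptors and adaptors were higher for 3 of 14 tested (Tlr2, Tlr4 and Cd14) and lower for Tlr12 (median 1.18), with 2 higher without BM progenitors replicate 1, 2 or 3 or replicate 1, and 7 without replicate 3, and 2 lower without the library labelled replicate 2. Tlr12 was 0.12, 1.16 and 1.43 in marrow and at 0 reads in the lines, at least 21.7-fold lower. Inflammatory cytokine and chemokine genes were higher for 3 of 10 (Ccl3, Ccl4 and Ccl9) and lower for Ccl5 (median 2.69), with 1, 1 and 2 higher without BM progenitors replicate 1, 2 and 3, 2 without replicate 1 and 4 without replicate 3. Ccl9, a myeloid chemokine, was 5.05, 5.23 and 5.85 against 11.79, 8.88 and 10.01 (log2 fold change 4.85, SE 0.71, adjusted p = 0.00383). Ccl5, a chemokine of lymphocytes and myeloid cells, was 4.51, 5.13 and 5.38 against -0.91, 0.36 and -1.80 (log2 fold change -5.79, SE 0.62, adjusted p = 0.000911). Tlr2, Ccl3 and Ccl4 lost the call in some of these fits, with log2 fold changes of 2.40 to 3.57 for Tlr2, 3.90 to 5.45 for Ccl3 and 3.89 to 6.76 for Ccl4. Ccl6 was 6.26, 6.49 and 6.44 against 13.52, 10.69 and 5.84, above 10 in replicate 1 and the library labelled replicate 2 and below marrow in replicate 3, and passed as higher without replicate 3 (5.71). Of 26 listed genes, 16 were too low to test, and Csf2 and Nos2 were at 0 in all 6 libraries.

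Class II MHC genes were lower for 3 of 8 tested (Ciita, H2-Aa and H2-Ab1; median -3.61), 2 without BM progenitors replicate 2 or 3 and 4 without the library labelled replicate 2. Ciita, the class II transactivator, missed without BM progenitors replicate 2 or 3 (log2 fold change -4.31 and -4.30). H2-Aa was 5.28, 6.69 and 6.23 against -3.21, -2.55 and -2.01 (log2 fold change -8.65, SE 0.55, adjusted p = 0.00011). Cd74, the invariant chain, was 8.57, 10.15 and 9.52 against 7.91, 7.45 and 2.27 and did not pass, with replicate 3 far below the other libraries of the lines. Interferon-stimulated genes had 1 higher and 1 lower of 16 (median -0.21), near the shares among all genes (3.44% and 9.21%), and 3 lower without the library labelled replicate 2. Oas1a, a sensor of double-stranded RNA, was 2.73, 3.63 and 3.64 against 5.91, 6.95 and 5.32 (log2 fold change 2.73, SE 0.49, adjusted p = 0.0103), and Oasl1, a related gene, 1.47, 0.40 and 1.03 against -4.34, -2.40 and -3.90 (log2 fold change -4.52, SE 0.65, adjusted p = 0.00363). Ifit1, Ifit3 and Oasl2 were above 1 only in the library labelled replicate 2 within the lines (2.49, 2.94 and 1.93), and Oasl2 was lower without it (-5.41).

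Sterol and fatty acid synthesis genes were higher for 8 of 20 tested (among them Hmgcs1, Mvd, Fdft1, Sqle, Lss, Insig1 and Scd2; median 1.83). The groups did not overlap for 17 of the 20, beside 38% of all genes. The number of higher genes was 6, 5 and 5 without BM progenitors replicate 1, 2 and 3, and 8, 10 and 4 without replicate 1, the library labelled replicate 2 and replicate 3. Fdft1, Sqle, Lss and Insig1 lost the call in some of these fits, with log2 fold changes of 1.83 to 2.40 for Fdft1, 1.70 to 2.40 for Sqle, 1.85 to 2.88 for Lss and 1.83 to 2.46 for Insig1. Hmgcs1, an early enzyme of the pathway, was 5.36, 5.51 and 5.46 against 7.95, 7.17 and 8.97 (log2 fold change 2.59, SE 0.45, adjusted p = 0.00855). Mvd, a later enzyme, was 3.18, 3.34 and 3.43 against 6.89, 5.68 and 7.18 (log2 fold change 3.27, SE 0.43, adjusted p = 0.00224). Replicate 3 was highest for both enzymes, and the groups did not overlap. Fdps, which makes farnesyl pyrophosphate, reached 10.66 in replicate 3 against 8.26 and 7.75 in the others, and passed without the library labelled replicate 2 (2.86).

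Hmgcs1 is shown as the enzyme gene of this list with a match. The sterol element TCACNCCAC was searched on both strands and was present in 1 of 12 listed genes with a window, and in 1.24% of all windows. It began -137 bases from the start site (chr13:119690101-119690400, plus strand, GRCm38.p6).
Hmgcs1: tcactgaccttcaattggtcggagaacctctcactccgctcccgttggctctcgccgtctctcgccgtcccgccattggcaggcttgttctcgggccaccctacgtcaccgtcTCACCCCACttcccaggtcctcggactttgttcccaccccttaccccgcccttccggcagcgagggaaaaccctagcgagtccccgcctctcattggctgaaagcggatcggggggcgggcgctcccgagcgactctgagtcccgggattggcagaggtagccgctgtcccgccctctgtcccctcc
Capitals mark the match.

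Glycolysis genes were higher for 3 of 16 (Slc2a1, Aldoa and Pkm) and lower for Slc2a3 (median 1.13), with 1 higher without BM progenitors replicate 1, 2 or 3, 2 without replicate 1 and 4 without the library labelled replicate 2. Aldoa and Pkm lost the call in some of these fits, with log2 fold changes of 1.87 to 2.36 for Aldoa and 2.06 to 2.50 for Pkm. The glucose transporter genes moved in opposite directions. Slc2a1 was 3.74, 3.94 and 4.15 against 7.30, 6.75 and 6.27 (log2 fold change 2.83, SE 0.33, adjusted p = 0.00134), and Slc2a3 was 7.03, 7.33 and 6.98 against -1.10, -1.08 and 0.33 (log2 fold change -7.73, SE 0.48, adjusted p = 0.000109). Both passed with each library left out and had the same signs under median centring and quantile normalization. Among NRF2 targets, Slc7a11, Srxn1 and Osgin1 were higher of 14 tested (median 0.81), 2 without BM progenitors replicate 2 or 3, and 1 was lower without replicate 3. Srxn1 missed without BM progenitors replicate 2 or 3 (2.25 and 2.50). Slc7a11, the cystine transporter, was 0.56, 0.54 and 0.86 against 9.37, 5.69 and 7.43 (log2 fold change 6.84, SE 0.85, adjusted p = 0.00186), highest in replicate 1. Nqo1, another target, was 4.85, 3.84 and 4.16 against -0.49, -0.82 and 3.19, did not pass with all libraries and was lower without replicate 3 (-4.94).

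No amino acid stress gene passed of 11 tested with limma (median 0.46), 3 were higher at an unadjusted p below 0.05, and 1 passed without the library labelled replicate 2 or replicate 3. Trib3, a stress-induced pseudokinase, was 1.64, 1.57 and 0.95 against 9.73, 0.86 and 2.33, and Ddit3, which encodes CHOP, 3.82, 4.45 and 4.55 against 6.96, 3.99 and 3.27. Replicate 1 stood above every other library in both. For 13 mitochondrially encoded genes, limma called none and 0 had an unadjusted p below 0.05 (median 0.17). Estrogen response genes also gave no call among 6 tested (median -0.56), with 1 higher and 1 lower at an unadjusted p below 0.05, and 1 higher and 1 lower passed without the library labelled replicate 2. Ccnd1, cyclin D1, was 4.61, 4.53 and 4.10 against 1.95, 8.75 and 0.81, high in the library labelled replicate 2 and in the day 4 libraries (10.35, 8.77 and 10.16), and lower at -3.03 without the library labelled replicate 2.

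Cell division genes differed within the lines. None of 18 mitosis genes passed with limma (median -1.86; 2 lower at an unadjusted p below 0.05), and 5 were lower without replicate 3. The median difference from BM progenitors was -4.55 in replicate 1, -1.20 in the library labelled replicate 2 and -0.04 in replicate 3. Mki67, the Ki-67 antigen, was 8.08, 8.60 and 8.44 in marrow and 3.54, 7.22 and 6.87 in the lines, and Plk1, a mitotic kinase, 8.74, 8.30 and 8.16 against 2.83, 7.06 and 8.64. Replicate 1 was lowest by at least 3 log2 units in both. Summed mitosis genes came to 4570, 4630 and 4630 CPM in marrow and 240, 2060 and 4370 CPM in the lines. DNA replication genes were lower for 2 of 18 (Mcm7 and Cdc6; median -1.78), beside 9.21% of all genes, none without BM progenitors replicate 1, 2 or 3, replicate 1 or the library labelled replicate 2, and 14 without replicate 3, and 13 were lower at an unadjusted p below 0.05 in limma with all 6 libraries. Their median differences from BM progenitors were -2.99, -2.08 and -0.38, and their sums 7970, 6080 and 6250 CPM in marrow and 844, 1290 and 5360 CPM in the lines, nearest to marrow in replicate 3. The log2 fold changes over the left-out libraries were -3.06 to -1.80 for Mcm7 and -4.13 to -2.32 for Cdc6. Rrm2, a subunit of ribonucleotide reductase, was 10.84, 10.45 and 10.26 against 5.62, 7.57 and 10.66, with replicate 3 at the level of marrow, and was lower without that library (-3.92). Among p53 targets and Cdkn2a, Cdkn1a and Cdkn2a were higher of 12 (median 1.45), 1 without BM progenitors replicate 1, 2 or 3 and 4 without replicate 3. Cdkn1a, which encodes p21, was 3.95, 4.56 and 4.44 against 10.09, 7.77 and 6.63 (log2 fold change 3.85, SE 0.81, adjusted p = 0.0196), highest in replicate 1, and did not pass without BM progenitors replicate 1, 2 or 3 (3.67, 3.97 and 3.91).

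Immediate early genes gave 2 lower of 12 (Hspa1a and Hspa1b, near-identical heat shock genes whose reads may be shared; median -0.22), 0 without BM progenitors replicate 2 or 3 and 1 without replicate 1, and 1 was higher without replicate 3. Over the left-out libraries their log2 fold changes were -6.70 to -5.24 for Hspa1a and -6.76 to -4.89 for Hspa1b. Fos, a transcription factor subunit, was 3.12, 7.01 and 6.63 in marrow and 8.79, 5.54 and 1.89 in the lines. It varied by more than 3 log2 units within each group. Within the lines it was highest in replicate 1, and within marrow it was lowest in replicate 1.

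**Figure D4:**
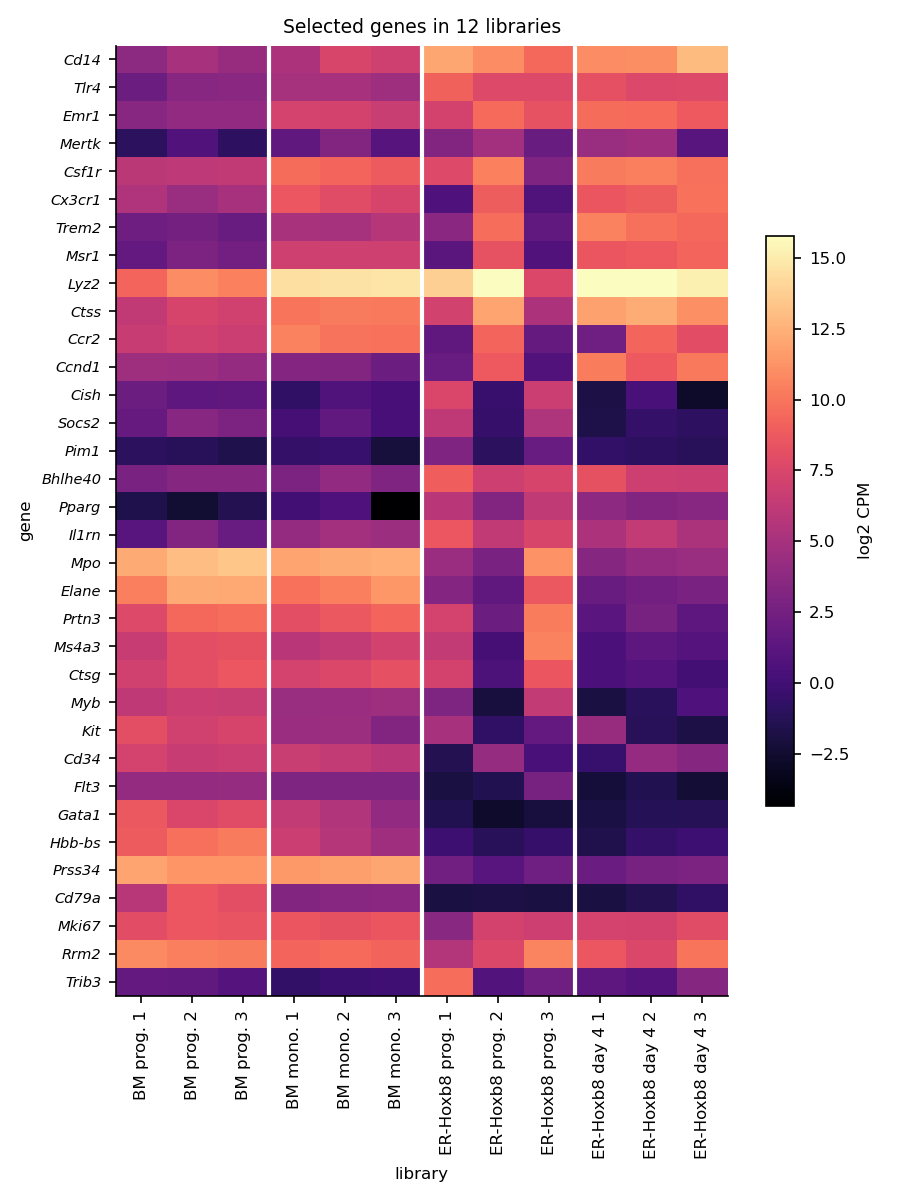
Deposited log2 CPM of 34 genes in the 12 libraries normalized together (columns; white lines separate BM progenitors, BM monocytes, ER-Hoxb8 progenitors and ER-Hoxb8 day 4). Cish, Socs2 and Pim1 are brighter in ER-Hoxb8 replicates 1 and 3 than in the library labelled replicate 2, whose column resembles that of day 4 replicate 2.

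The 15 genes with the widest range in the lines, among 4065 with a log2 value of at least 6 in 1 of its libraries, were Avil, Gm2016, Emp1, Tyrobp, Gm8332, Muc13, Gm5662, Myof, Ms4a3, Serpinb9e, Inhba, Slfn1, Xlr3b, Lcn2 and Sptssb. The median range of the 4065 was 1.21, and these 15 ranged over 9.55 to 12.96. Avil, an actin regulator gene, was 8.62, -2.85 and -4.34 in the lines and -0.59, -0.22 and -0.74 in marrow. Lcn2, an iron-binding granule protein, was 9.00, -0.68 and 0.27 against 1.32, 6.74 and 5.25, and Inhba, an activin subunit, 7.65, 0.48 and -2.63 against 0.22, 4.03 and 2.35. Avil, Lcn2, Inhba and Slfn1 were highest in replicate 1. Ms4a3, a gene of granulocyte and monocyte precursors, was 6.38, 0.17 and 10.59 against 6.58, 8.12 and 8.29, and Muc13, a mucin, 7.38, -1.95 and 8.98 against 6.05, 4.73 and 5.28. Both were high in replicates 1 and 3 and low in the library labelled replicate 2, as were Gm2016, Gm8332 and Gm5662, which are near-identical loci whose reads cannot be assigned with certainty. Sptssb and Serpinb9e, also with near-identical relatives for the latter, were above 6 in replicate 3 alone. Emp1, a membrane protein gene, was 4.08, 7.05 and -4.34 against 3.44, 3.37 and 2.99, and Myof, a membrane repair gene, 4.79, 6.22 and -4.34 against -0.31, -0.89 and -1.65; replicate 3 was at 0 reads for both. Tyrobp, the adaptor DAP12, was -4.34, 6.89 and -4.02 in the lines but also 4.95, -1.29 and -3.57 in marrow, so it varied in both groups. None of the tested members of these 15 passed with all 6 libraries, and without the library labelled replicate 2 Muc13 passed as higher (2.83) and Xlr3b as lower (-6.01).

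**Figure D5:**
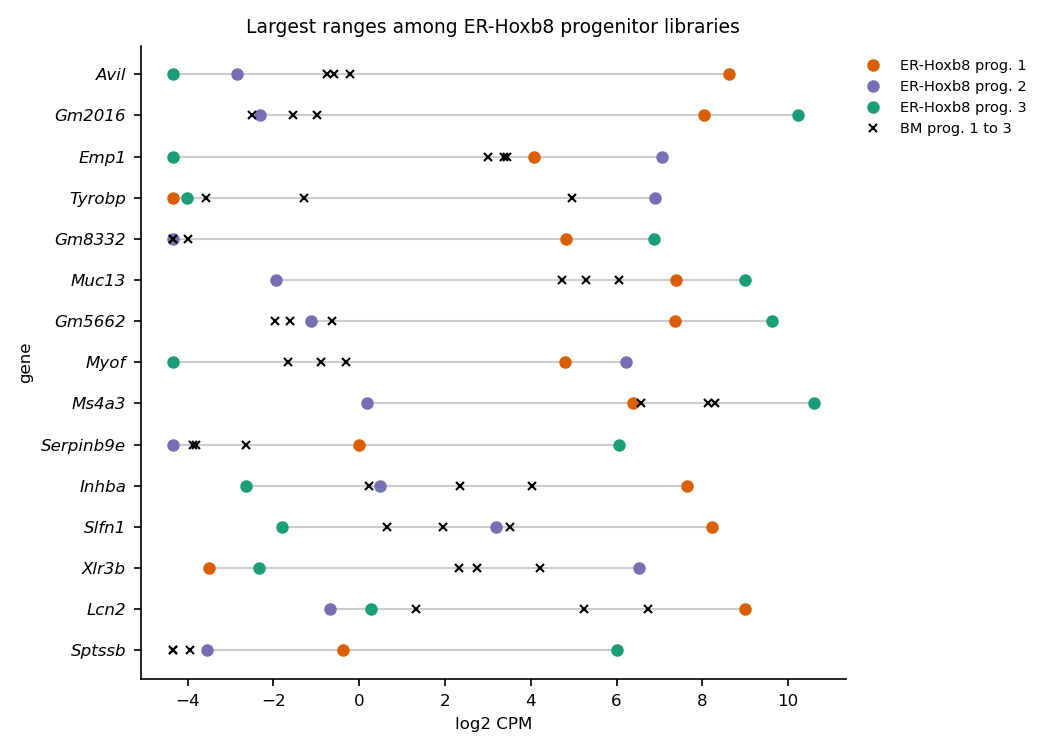
Log2 CPM (x axis) of the 15 genes with the widest range among ER-Hoxb8 progenitor libraries (circles; crosses, the 3 BM progenitor libraries). Ranges run from 12.96 log2 units for Avil to 9.55 for Sptssb.

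Genes with most reads also separated the libraries. Ftl1, ferritin light chain, led all 3 ER-Hoxb8 libraries with 7.23%, 5.54% and 3.25% of CPM, and was 12.09, 12.20 and 12.08 in marrow against 16.39, 15.78 and 14.94 (log2 fold change 3.58, SE 0.89, adjusted p = 0.0368). It did not pass without replicate 1 (3.23) or BM progenitors replicate 1, 2 or 3 (3.56, 3.61 and 3.55). The next in replicate 1 were Ctsd, Lyz2, Plin2 and Actb, and in the library labelled replicate 2 Lyz2, Psap, Actb and Ctsd. In replicate 3 they were Ubb, Actb, Hspa5 and H3f3b, with no lysosomal gene among them. BM progenitors were led by Car2 in replicate 1 and by Mpo in replicates 2 and 3, with Ftl1, Elane, Actb, Prss34, Ngp and Ubb among the next. Plin2, a lipid droplet coat protein, was 7.03, 7.33 and 7.24 against 13.71, 10.37 and 8.72, and Psap, prosaposin, 10.17, 10.84 and 10.69 against 11.78, 14.56 and 8.71. Plin2 was highest in replicate 1, and it passed without replicate 1 (2.34) or replicate 3 (4.84). Psap was highest in the library labelled replicate 2 and below marrow in replicate 3.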

How the data were processed

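Bulk RNA was sequenced from 3 lineage-depleted marrow samples and 3 ER-Hoxb8 progenitor samples. The authors trimmed reads with fastp, ran kallisto 0.46.0 on GRCm39 transcripts, brought estimates to gene level by tximport, and deposited log2 CPM scaled by TMM in edgeR. CPM was rebuilt from these by taking off the lowest value of the set, and the effective depth came from the steps between low values. Genes above 1 CPM in at least 3 of 6 libraries (11395) were tested with limma 3.58.1 in R 4.3.3 (eBayes with trend, no block), with Benjamini-Hochberg adjustment over all of them. To pass, a gene needed a log2 fold change of 2 or more and an adjusted p under 0.05. Tables and figures were made with Python 3.11.15, numpy 2.4.6, pandas 2.3.3 and matplotlib 3.10.9. The fit was tested on simulated data. In the deposited table, 1 entry has no gene name and took at most 0.0227% of a library; it was left out.

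Members and gene lists were chosen with earlier results of these data known. Named genes are the paper's macrophage genes and Kit, the 15 largest changes in each direction among genes that passed without overlap, the 15 widest ranges in the lines, the 5 genes with most reads per library, and examples from the lists. Other genes were chosen after their values were seen. Alternatives covered the offset, filters, scaling, fold limit, fit, block and each library left out. Promoter windows came from RefSeq (GRCm38.p6). Some list members are not reported here by name.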

Additional observations from a re-analysis of the deposited data

How the results depend on the processing

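With all 6 libraries, 1442 genes passed, 392 higher and 1050 lower. A filter of mean CPM above 5 gave 808 (319 higher, 489 lower) among 9315 genes tested. Quantile normalization gave 788 higher and 845 lower, so that 48.3% of calls were higher against 27.2%, and the mean CPM filter gave 39.5%. A fold limit of 1 gave 712 higher and 1180 lower. Leaving out 1 library gave 993 to 1999 genes, 198 to 697 higher and 784 to 1302 lower. Without the library labelled replicate 2, Csf1r turned from 0.97 to -0.71 (range -0.71 to 2.96 over left-out libraries) and Msr1 from 1.14 to -1.31 (-1.31 to 2.48). Psap (1.12 to -0.32), Ctss (1.24 to -0.67), Cdk6 (-0.41 to 0.45), Ms4a3 (-1.95 to 0.82), Lcn2 (-1.57 to 0.20) and Inhba (-0.37 to 0.31), none of which passed, also turned without it. Inhba turned as well without replicate 3 (1.86) or BM progenitors replicate 2 (0.55). Emp1 turned from -1.01 to 2.30 without replicate 3, and Slfn1 from 1.16 to -1.34 without replicate 1. Muc13 turned from -0.55 to 0.16 with an offset of 1 CPM, 0.27 with array weights and 2.83 without that library (-2.64 to 2.83). Pbx3 turned from -0.38 to 0.73 under quantile normalization and 0.17 without replicate 1 (-0.67 to 0.17). Of the 117 named genes that passed, 109 passed under quantile normalization, 115 under median centring, 110 with an offset of 1 CPM, 109 with no filter, and 80 to 110 with 1 library left out. None of the 117 changed direction under these settings. The cause of these shifts was not tested.

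With replicate number as a block, 1311 genes passed (330 higher, 981 lower), and 107 of the 117 named genes. Same-numbered libraries did not all deviate together, with correlations across genes of -0.03, 0.20 and -0.08 for numbers 1, 2 and 3. For number 2 this was the highest value of either library. Libraries numbered 1 and 3 did not correlate best with their own number, so the data give no sign of pairing that holds for every number. With 12 libraries of 4 groups in 1 fit, 1694 passed, and with limma array weights 2104.

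Limits apply to these values. The groups differ in genotype, culture and transgene at once, so no difference can be assigned to 1 of them. The library labelled replicate 2 had the profile of day 4 cells, and how that came about was not tested. At an effective depth of 33.3 to 52.2 M reads, levels under 3 reads per library cannot be told from 0.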

Other observations

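Y-linked genes gave a further description of the libraries. Kdm5d, a Y-linked demethylase gene, was 4.75, 0.56 and 0.47 in BM progenitors and -0.09, 1.07 and -0.06 in ER-Hoxb8 progenitors, and Eif2s3y, a Y-linked translation factor gene, 6.48, -2.88 and -2.84 against -2.72, -2.41 and -3.64. Ddx3y, a Y-linked helicase gene, was 6.28, -1.27 and -1.04 against -2.28, -1.29 and -1.88, and -2.34, -1.63 and -0.96 in day 4 libraries. Of the 6 libraries compared, Ddx3y was above 6 only in BM progenitors replicate 1, where Kdm5d and Eif2s3y were also highest. Donor sex did not enter the fit, and its part in the differences was not tested.

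BM monocytes and day 4 libraries belong to neither group. With BM monocytes, the library labelled replicate 2 correlated at 0.843 to 0.865 across genes, replicate 1 at 0.767 to 0.802 and replicate 3 at 0.770 to 0.813. Day 4 libraries correlated with each other at 0.946 to 0.969. Ccl6, a chemokine gene, was 10.53, 10.97 and 9.67 in day 4 libraries and Ccl9, another chemokine gene, 8.73, 9.02 and 8.49. Trib3 was 1.32, 0.96 and 3.42 there against 9.73 in ER-Hoxb8 progenitors replicate 1, and Avil was -2.84, -1.65 and -3.30. Mitochondrially encoded genes took 0.906%, 0.854% and 1.04% of CPM in BM progenitors and 0.610%, 1.06% and 0.882% in ER-Hoxb8 progenitors.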
